A study of Mus musculus with 2 samples.

Results

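The miR-30 family consists of 6 mouse microRNA genes, Mir30a, Mir30b, Mir30c-1, Mir30c-2, Mir30d and Mir30e, which lie in 3 genomic clusters of one pair each. They were selected by gene symbol, without use of their levels, from the 2202 microRNA genes counted in left cerebral cortex. Tissue came from male B6CASTF1/J mice aged 36 days, the first-generation hybrid of C57BL/6J and CAST, with no treatment named in the labels. The 2 libraries form 1 group, with replicate 2 from the animal numbered 4 and replicate 1 from the animal numbered 3. The labels give the size range as below 30 bases, and they give both libraries the same donor identifier. Whether these are independent animals therefore rests on the animal numbers alone, and the spread between the libraries may be partly technical. No contrast between conditions exists, so no p-value is given. Replicate 2 held 4010274 and replicate 1 held 4273791 counts on the genes' own strand, and all 6 members were above 100 CPM (own-strand counts scaled to a library total of 1000000) in both libraries.

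MicroRNAs are cut from a hairpin precursor whose arms give a 5p and a 3p product, and an Argonaute protein uses one of them as a guide. Pairing of the seed, bases 2 to 8 of the mature microRNA, with a messenger RNA is the main determinant of which transcripts are repressed. The 5p products of the miR-30 family share 1 seed, and the 3p products fall into separate seed groups. In human cells miR-30a is known to repress the autophagy gene BECN1, and in mouse prefrontal cortex miR-30a-5p is known to repress Bdnf, which encodes a neurotrophin.

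The mature sequences are shown because they define the family and decide which reads can be assigned to 1 gene. RefSeq entries (GRCm38.p6) were found for 4 of the 6 members, Mir30a, Mir30e, Mir30c-1 and Mir30c-2, while Mir30b and Mir30d are given by name. The 4 genes encode 7 distinct mature sequences, of which 3 are 5p and 4 are 3p. Capitals mark the seed.
miR-30a-5p: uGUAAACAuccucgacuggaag
miR-30e-5p: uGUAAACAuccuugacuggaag
miR-30c-5p: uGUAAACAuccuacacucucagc
miR-384-5p: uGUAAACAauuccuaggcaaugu
miR-30a-3p: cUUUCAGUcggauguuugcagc
miR-30e-3p: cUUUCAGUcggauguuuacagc
miR-30c-1-3p: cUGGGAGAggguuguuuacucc
miR-30c-2-3p: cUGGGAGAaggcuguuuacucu

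All 3 distinct 5p sequences of these genes carried the seed GUAAACA, and so did 1 sequence outside the family, miR-384-5p, among the 1738 mature mouse sequences in the RefSeq table. Counting positions from 1 at the 5′ end, miR-30a-5p and miR-30e-5p differed by the single substitution C13U, and their 3p partners, both with seed UUUCAGU, by G18A. Compared with miR-30a-5p over 22 bases, miR-30c-5p shared the first 12 and differed by C13A, G14C, G18C, G19U and A20C. It is encoded identically by Mir30c-1 and Mir30c-2. Their 3p products had another seed, UGGGAGA, and differed by G9A, U12C and C22U. Over the same 22 bases, miR-384-5p shared the first 8 with miR-30a-5p and differed at 10 positions.

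The Mir30c-1 and Mir30c-2 hairpins shared an unbroken run of 28 bases, which holds the whole of miR-30c-5p and is close to the labelled size limit of 30 bases. Both are shown here with that run in capitals (GRCm38.p6, Mir30c-1 at chr4:120769534-120769622 on the minus strand and Mir30c-2 at chr1:23291701-23291784 on the plus strand).
Mir30c-1: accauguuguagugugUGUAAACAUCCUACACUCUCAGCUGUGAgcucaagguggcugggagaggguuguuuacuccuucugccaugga
Mir30c-2: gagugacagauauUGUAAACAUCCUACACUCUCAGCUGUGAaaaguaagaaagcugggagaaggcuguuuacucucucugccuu

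A read that lies within the capitals has no base that separates the 2 genes. Such reads belong to neither gene and, under the reading of the tables used here, stand in the multi-mapped entry, which took up 39.9% of the sequenced total in replicate 2 and 42.8% in replicate 1. The counts of Mir30c-1 and Mir30c-2 given here therefore hold reads that reach past the run or come from the rest of the hairpin, and the level of miR-30c-5p cannot be read from them. Mir30a and Mir30e shared no more than 18 bases in a row, and either of them shared 12 with the Mir30c hairpins. No stretch of 22 bases of Mir30a or Mir30e was found in another hairpin of the table. Mir30b and Mir30d are missing from it, so stretches shared with these 2 genes were not searched.

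The family, as far as reads were assigned to 1 gene, was present at nearly the same level in both libraries. It took 64612 own-strand counts in replicate 2, which is 16112 CPM, and 69448 in replicate 1, which is 16250 CPM, for a mean of 16181 ± 97.7 CPM (SD, n = 2). These sums correspond to 1.61% (exact Clopper-Pearson 95% interval 1.60 to 1.62) of the own-strand counts of replicate 2 and 1.62% (1.61 to 1.64) of those of replicate 1. Intervals cover counting error only, as reads were not shown to be independent molecules. Most of the sum came from 3 members. Mir30d, Mir30a and Mir30e together gave 94.4% of the family's counts in replicate 2 and 96.9% in replicate 1.

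Mir30d, on chromosome 15 (68341208 to 68341289, minus strand, mm10), was the most abundant member by assigned reads. It had 32807 counts or 8181 CPM in replicate 2 and 37744 counts or 8832 CPM in replicate 1, a mean of 8506 ± 460.2 CPM (SD, n = 2). It ranked 24th among all microRNA genes in replicate 2 and 25th in replicate 1. Its 82-base hairpin lies in an exon of the long noncoding RNA gene Gm20732 on the same strand, and 9 of its bases also overlap the unclassified transcript Gm37296.

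Mir30a, on chromosome 1 (23272269 to 23272339, plus strand), followed with 19005 counts or 4739 CPM in replicate 2 and 20045 counts or 4690 CPM in replicate 1. Its mean was 4715 ± 34.6 CPM (SD, n = 2), it ranked 41st in both libraries, and it is the only member that overlaps no other annotated gene. Mir30e, on chromosome 4 (120772606 to 120772697, minus strand), had 9194 counts or 2293 CPM in replicate 2 and 9519 counts or 2227 CPM in replicate 1. Its mean was 2260 ± 46.2 CPM (SD, n = 2). Mir30e and Mir30c-1 both lie within introns of Nfyc, which encodes a subunit of the CCAAT-binding transcription factor NF-Y, on its strand.

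The remaining members had far fewer assigned reads, and each of them is the cluster partner of a member with many. Reads within the run shared by Mir30c-1 and Mir30c-2 are in neither count, so these values do not rank the abundance of their products. Mir30c-2, within an exon of the long noncoding RNA gene Gm27028 on chromosome 1, had 1810 counts or 451 CPM in replicate 2 and 1100 counts or 257 CPM in replicate 1. Mir30c-1 had 1067 counts or 266 CPM in replicate 2 and 526 counts or 123 CPM in replicate 1. Mir30b, on chromosome 15 (68337415 to 68337510, minus strand), with 16 of its 96 bases in an exon of the processed transcript Gm26621, had 729 counts or 182 CPM in replicate 2 and 514 counts or 120.3 CPM in replicate 1. All 3 were higher in replicate 2. Their means were 354 ± 137 CPM for Mir30c-2, 195 ± 101 CPM for Mir30c-1 and 151 ± 43.5 CPM for Mir30b (SD, n = 2).

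**Figure D1:**
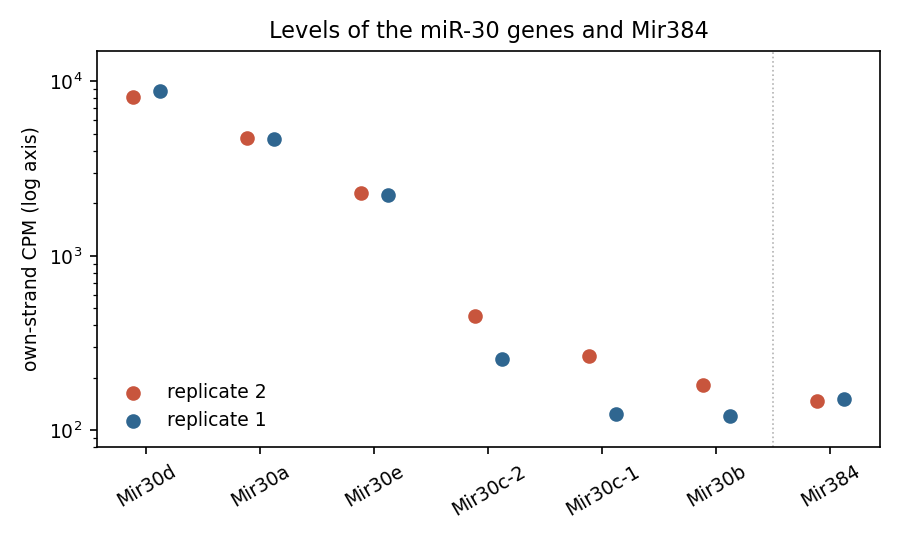
Own-strand CPM (log axis) of the 6 miR-30 genes and of Mir384, with 1 point per library and replicate 2 left of replicate 1. Mir30d, Mir30a and Mir30e lie at 2227 CPM or more with their points almost level, while Mir30c-2, Mir30c-1 and Mir30b lie at 451 CPM or less with the point of replicate 2 higher.

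The order of the mean levels, from Mir30d through Mir30a, Mir30e, Mir30c-2 and Mir30c-1 to Mir30b, was the same in both libraries. The mean CPM of Mir30d was 1.80 times that of Mir30a, Mir30a 2.09 times Mir30e, and Mir30e 6.38 times Mir30c-2. Each of these steps exceeded the spread between the libraries, whose values did not overlap. The order and its steps hold for assigned reads only. This limit is known to touch both Mir30c genes, and for Mir30b and Mir30d shared runs were not searched. The values of Mir30c-2 and Mir30c-1 overlapped across libraries, as did those of Mir30c-1 and Mir30b, so these neighbours were not separated beyond the spread. Hairpin lengths ran from 71 to 96 bases, and per 100 hairpin bases the mean levels were 10373 CPM for Mir30d, 6640 for Mir30a, 2456 for Mir30e, 422 for Mir30c-2, 219 for Mir30c-1 and 157 for Mir30b. The order was thus also the order per base.

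By cluster, the pair on chromosome 15 gave the largest share of the family. Mir30d and Mir30b, whose hairpins are 3697 bases apart, gave 51.9% of the family's counts in replicate 2 and 55.1% in replicate 1 (mean 53.5% ± 2.25, SD, n = 2). Mir30a and Mir30c-2, with 19361 bases between them, gave 32.2% in replicate 2 and 30.4% in replicate 1 (31.3% ± 1.25). Mir30e and Mir30c-1, with 2983 bases between them, gave 15.9% in replicate 2 and 14.5% in replicate 1 (15.2% ± 1.00). Among assigned reads, the order of the clusters was the same in both libraries, with gaps larger than their SDs.

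Within every cluster 1 gene exceeded its partner by 8.62-fold or more in both libraries, although neighbouring microRNA genes on 1 strand are often cut from a common transcript. Mir30d had 45.0 times the counts of Mir30b in replicate 2 and 73.4 times in replicate 1. Mir30a had 10.5 times the counts of Mir30c-2 in replicate 2 and 18.2 times in replicate 1. Mir30e had 8.62 times the counts of Mir30c-1 in replicate 2 and 18.1 times in replicate 1. Such ratios need no scaling between libraries, and all 3 were smaller in replicate 2. Per hairpin base the ratios in replicate 2 were 52.7 for the chromosome 15 pair, 12.4 for the chromosome 1 pair and 8.34 for the chromosome 4 pair, and those in replicate 1 were 86.0, 21.6 and 17.5 for the same pairs. All 3 ratios count assigned reads only. For the pairs that hold a Mir30c gene, reads within the shared run of 28 bases are counted for neither gene. Runs that Mir30b or Mir30d share with other hairpins were not searched, since no RefSeq entry was found for them. How much the reads left out add to the ratios was not tested.

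**Figure D2:**
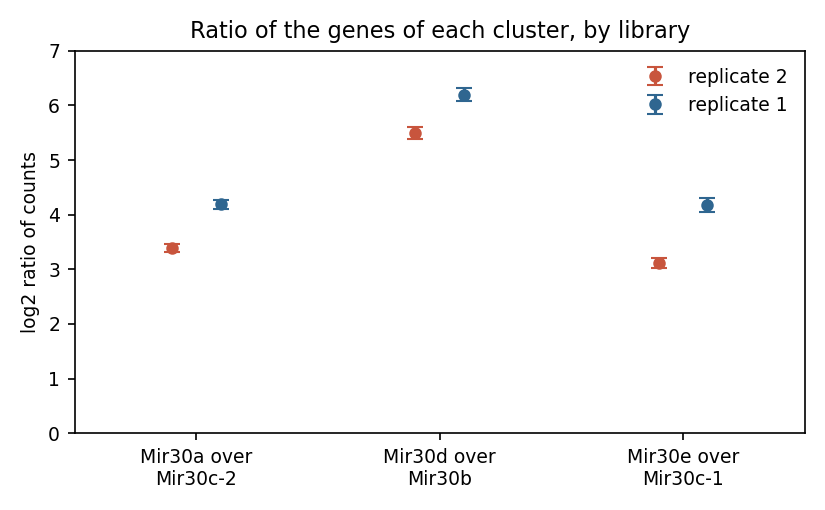
Log2 ratio of own-strand counts between the genes of each cluster, with 1 point per library and exact 95% intervals for counting error, replicate 2 left of replicate 1. The ratios were 3.39 in replicate 2 and 4.19 in replicate 1 for Mir30a over Mir30c-2, 5.49 in replicate 2 and 6.20 in replicate 1 for Mir30d over Mir30b, and 3.11 in replicate 2 and 4.18 in replicate 1 for Mir30e over Mir30c-1. The intervals of the libraries do not overlap in any cluster.

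The counts on the opposite strand were 0 for all 6 members in both libraries. Mir30e has an annotated microRNA gene on its opposite strand, Mir30f, which covers exactly the same 92 bases. In the counts made without regard to strand, Mir30e and Mir30f were both at 0, since reads there fit both genes. On the stranded counts Mir30f had 0 own-strand reads in both libraries, and its opposite-strand counts of 9194 in replicate 2 and 9519 in replicate 1 were the reads of Mir30e. For Mir30f, 0 counts leaves room for a level of 0.748 CPM in replicate 2, against 0.702 CPM in replicate 1. The other 5 members had identical own-strand and unstranded counts.

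**Figure D3:**
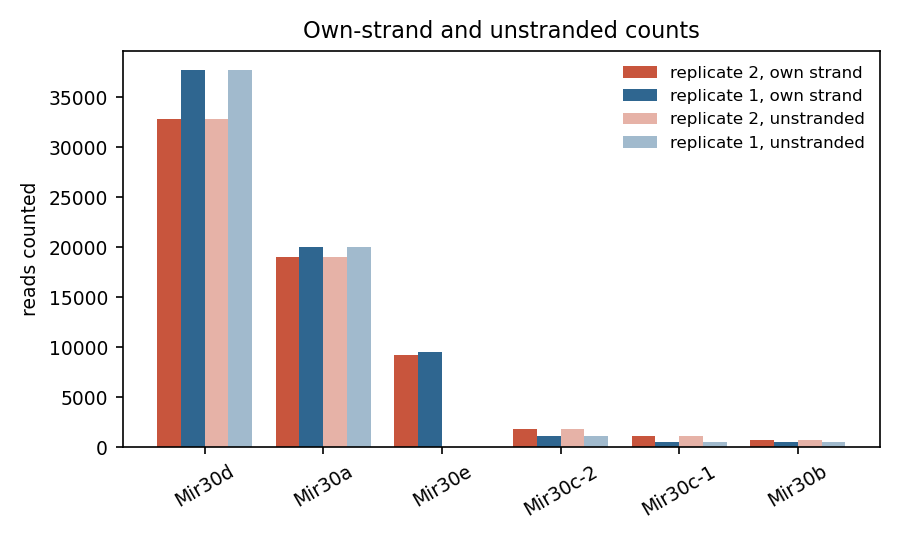
Reads counted for each miR-30 gene (linear axis from 0) on its own strand (solid bars) and without regard to strand (pale bars), replicate 2 left of replicate 1 in each kind. Mir30e, with 9194 own-strand reads in replicate 2 and 9519 in replicate 1, has no unstranded bar, while the bars of the other genes are of equal height.

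The difference between the libraries was computed as the log2 ratio of replicate 2 over replicate 1, scaled by edgeR's TMM effective library sizes. The 3 members with the most assigned reads differed little. Mir30d had a log2 ratio of -0.07 (exact 95% interval -0.09 to -0.05), Mir30a 0.06 (0.03 to 0.08) and Mir30e 0.08 (0.04 to 0.12). The 3 members with fewer assigned reads had ratios further from 0, with log2 0.64 (0.47 to 0.80) for Mir30b, 0.85 (0.74 to 0.96) for Mir30c-2 and 1.15 (1.00 to 1.31) for Mir30c-1. These correspond to levels 1.55-fold, 1.80-fold and 2.22-fold higher in replicate 2. Together these 3 genes made up 5.58% of the family's counts in replicate 2 and 3.08% in replicate 1.

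Read against all microRNA genes, differences of this size were common. Of the 6 members, all of which had the minimum of 100 counts in the libraries together, 1 was past 2-fold, against 17.5% of the 309 genes with as many counts (54 genes, of which 18 were higher and 36 lower in replicate 2). The median log2 ratio was 0.36 over the members and -0.04 over the 309 genes, whose quartiles lay at -0.50 and 0.42. The shift in the ratio of the partner genes was -0.80 on the log2 scale for Mir30a over Mir30c-2 (exact 95% interval -0.91 to -0.68), -0.71 for Mir30d over Mir30b (-0.87 to -0.54) and -1.07 for Mir30e over Mir30c-1 (-1.23 to -0.91). Among 84 pairs of neighbouring genes on 1 strand within 20 kb, a comparison chosen after these values were seen, the median size of the shift was 0.78, and 33.3% were past 2-fold, as was 1 of the 3 miR-30 pairs. The shifts of the miR-30 pairs were thus of a size that neighbouring genes often had in these libraries.

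**Figure D4:**
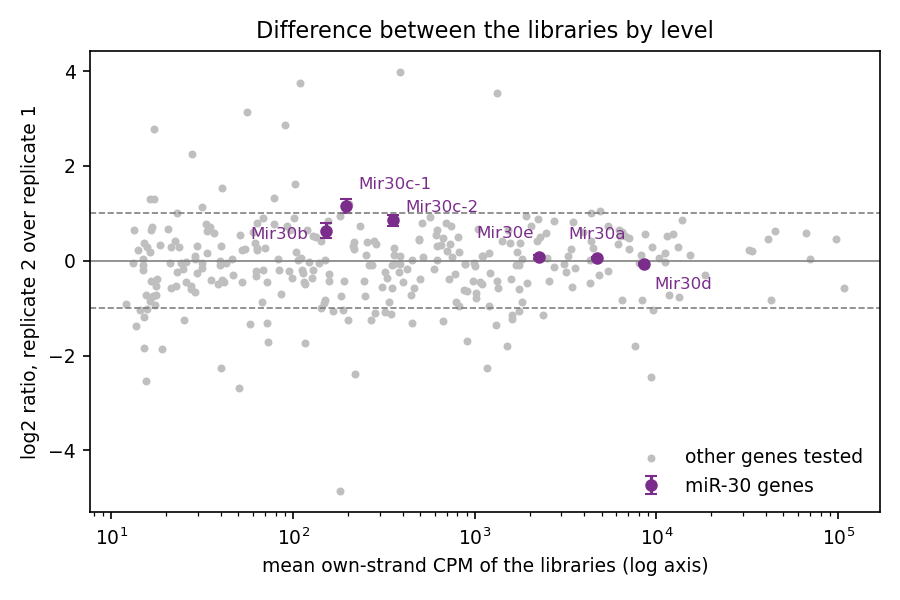
Log2 ratio of replicate 2 over replicate 1 (TMM scaling) against mean own-strand CPM (log axis) for the 309 genes with 100 or more counts together. The miR-30 genes are in purple with exact 95% intervals, dashed lines mark 2-fold, and Mir30c-1 at 1.15 is the only member beyond a dashed line.

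Marker genes of several cell types also differed between the libraries. Their counts too lack any read that maps to more than 1 place, so the sums hold for assigned reads only. Low counts of markers with several loci, such as Mir124a-2 or the astroglial and progenitor markers, therefore do not show that the mature product was scarce. Sums of red-cell markers (2 of 3 detected at 10 CPM in both libraries) were 794 CPM in replicate 2, against 83.5 CPM in replicate 1. Mir451a carried this difference (726 CPM in replicate 2, against 47.0 CPM in replicate 1), while Mir486 stood at 22.9 CPM in replicate 2, against 26.7 CPM in replicate 1. Epithelial markers (3 of 5 detected) summed to 386 CPM in replicate 2, against 138 CPM in replicate 1. Of these, Mir200c had 201 CPM in replicate 2, against 15.4 CPM in replicate 1, and Mir141 had 48 counts in replicate 2, against 0 in replicate 1, but Mir200b was lower in replicate 2, at 54.6 CPM, against 69.7 CPM in replicate 1. Markers of mural cells (2 of 2 detected) summed to 7691 CPM in replicate 2, against 5178 CPM in replicate 1. Mir143 made up most of that sum and had a log2 ratio of 0.65, whereas Mir145a had one of -0.42. Neuronal markers (7 of 10 detected, with Mir124a-2 at 0 counts) summed to 54159 CPM in replicate 2, against 86657 CPM in replicate 1. Mir132 carried most of this difference, with 30022 CPM in replicate 2, against 54937 CPM in replicate 1, while Mir138-1 (log2 ratio 0.52) and Mir138-2 (0.24) were higher in replicate 2. So was Mir124a-1, with only 15 counts in replicate 2, against 10 in replicate 1. Oligodendrocyte markers (2 of 3) summed to 3543 CPM in replicate 2, against 5098 CPM in replicate 1. Mir219a-2 (log2 ratio -0.42) and Mir338 (-0.59) were lower in replicate 2. Mir219a-1 ran the other way, with 35 counts in replicate 2, against 24 in replicate 1. Astroglial and progenitor markers (2 of 3) stood at 75.6 CPM in replicate 2, against 94.5 CPM in replicate 1. The sums for leukocytes and microglia (3 of 4) were 1989 CPM in replicate 2, against 2164 CPM in replicate 1. These genes did not move together. Mir150 had a log2 ratio of -0.25, Mir142 of -0.01 and Mir146 of 0.19. Mir223 had 2 counts in replicate 2, against 70 in replicate 1. The endothelial gene Mir126a stood at 10799 CPM in replicate 2, against 11394 CPM in replicate 1. The part of these differences in the higher levels of Mir30b, Mir30c-1 and Mir30c-2 in replicate 2 was not tested. In bulk tissue, fewer cells of a type and less RNA per cell cannot be told apart.

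Mir384, on the X chromosome (105344282 to 105344369, minus strand), encodes the miR-384-5p shown above. It was the only further gene found with the miR-30 5p seed, in a search limited to the 1032 of 2202 counted genes that have a RefSeq entry. It had 593 counts or 148 CPM in replicate 2 and 646 counts or 151 CPM in replicate 1, with a log2 ratio of 0.01 (exact 95% interval -0.15 to 0.17). It added 0.909% (0.838 to 0.985) of the summed counts of the 6 members and Mir384 in replicate 2 and 0.922% (0.852 to 0.995) in replicate 1. The 6 members and Mir384 together summed to 16259 CPM in replicate 2, against 16401 CPM in replicate 1. These sums hold the 3p products too, since reads of either arm count for the gene.

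The miR-29 and miR-181 families were set beside miR-30 because they too have several loci that give the same mature product. The counts of all 3 families lack any read that maps to more than 1 place, so their sums, order and top genes hold for reads assigned to 1 gene. Among those reads the miR-30 genes summed to more than either in both libraries. The miR-29 genes, all 4 of which were detected, summed to 8796 CPM in replicate 2, against 9559 CPM in replicate 1, and the miR-181 genes, 5 of 6 detected, to 7233 CPM in replicate 2, against 5938 CPM in replicate 1. The miR-30 counts were 1.83 times (1.81 to 1.86) those of miR-29 in replicate 2 and 1.70 times (1.68 to 1.72) in replicate 1. They were 2.23 times (2.20 to 2.26) those of miR-181 in replicate 2 and 2.74 times (2.70 to 2.78) in replicate 1. Scaled per hairpin base, the mean sums were 16403 for miR-30, 8459 for miR-29 and 6486 for miR-181, in counts per base scaled to 1000000 over all genes.

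The assigned reads of the families were also made up differently. Mir30d gave 50.8% of the miR-30 counts in replicate 2 and 54.3% in replicate 1. The top gene of miR-29, Mir29a, gave 88.8% in replicate 2 and 86.4% in replicate 1, and that of miR-181, Mir181b-2, 36.6% in replicate 2 and 32.4% in replicate 1. The log2 ratio of the family sum between the libraries was 0.03 (0.01 to 0.04) for miR-30, -0.08 (-0.10 to -0.06) for miR-29 and 0.32 (0.30 to 0.35) for miR-181. For miR-30 its sign depended on the scaling, being -0.01 with total counts. Log2 ratios of single genes spanned -0.07 to 1.15 in miR-30, -0.43 to 0.18 in miR-29 and -2.53 to 0.87 in miR-181.

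**Figure D5:**
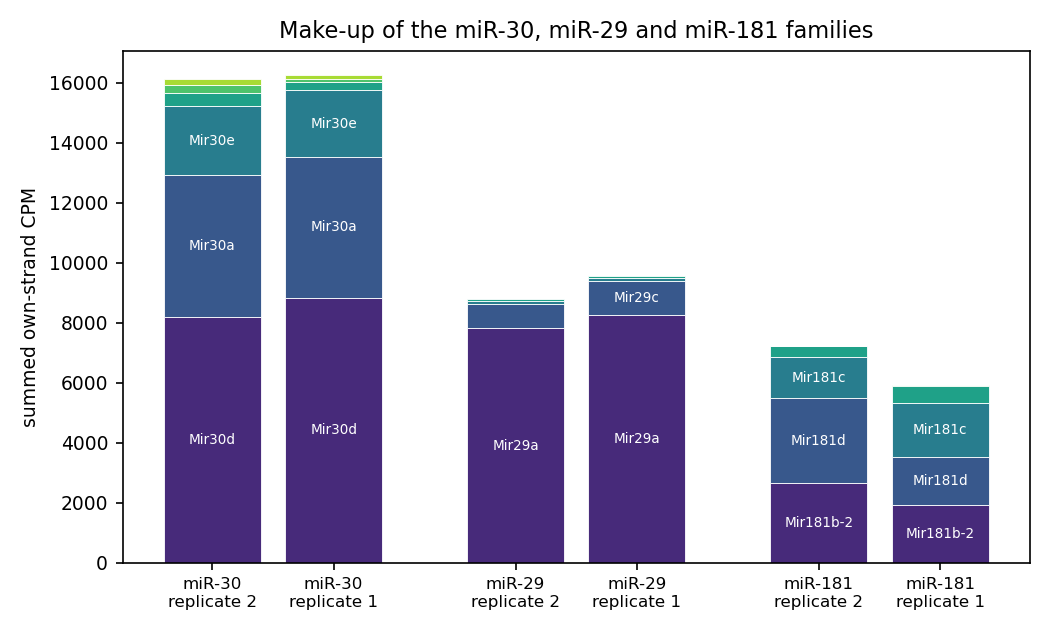
Summed own-strand CPM (linear axis from 0) of the miR-30, miR-29 and miR-181 families, stacked by gene, with replicate 2 left of replicate 1 in each family. The miR-30 bars reach 16112 CPM in replicate 2, against 16250 CPM in replicate 1, and Mir30d makes up the lowest block of each.

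The genes whose levels in the 2 libraries were most like those of each member were found by the Euclidean distance in log2(CPM + 1) over the 2 libraries, so a small distance means little more than a similar level. Closest to Mir30d was Mir29a, at a distance of 0.12, with 7810 CPM in replicate 2, against 8255 CPM in replicate 1, followed by Mir324 (0.15) and Mir191 (0.32). Mir30a was closest to Mir378a (0.18), Mir26b (0.19) and Mir298 (0.25), and Mir30e to Mir598 (0.21), Mir7b (0.25) and Mir181b-2 (0.29). Mir30c-1 was closest to Mir331, at 0.07, which had 279 CPM in replicate 2, against 125 CPM in replicate 1, and then to Mirlet7a-2 (0.18) and Mir153 (0.45). Mir30b was closest to Mir153 (0.14), Mir184 (0.17) and Mir376b (0.26). Mir30c-2 had no neighbour within 0.4, its nearest being Mir488 (0.42), Mir376c (0.50) and Mir412 (0.52).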

How the data were processed

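Each library has 1 table, deposited by the authors, with raw counts of reads at microRNA genes. Reads were mapped to mm10 and annotated with GENCODE M21, per the text files deposited beside the tables. The sources used here do not name the aligner or counter and say nothing of trimming or molecular identifiers. The columns carry no names and were read as unstranded, own-strand and opposite-strand counts after 4 entries that name no gene. Of 11534730 reads in replicate 2, 20.9% were unmapped, 39.9% multi-mapped and 4.39% outside microRNA genes. Of 11886775 reads in replicate 1, 16.7% were unmapped, 42.8% multi-mapped and 4.56% outside microRNA genes. These entries stayed out of totals.

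Symbols, coordinates and overlaps came from GENCODE M21 (2202 of 2202 identifiers matched) and sequences from RefSeq. CPM was computed over own-strand counts, and ratios between libraries with TMM sizes (edgeR 4.0.16, R 4.3.3) or DESeq2 1.42.0 size factors as an alternative. No count model was fitted, as 1 group leaves no contrast. A log2 ratio of at least 1 in size at 100 or more counts together counted as past 2-fold. Intervals are exact binomial ones (Clopper-Pearson, 95%, SciPy 1.17.1). Those of the shifts in partner ratios are instead exact conditional intervals of an odds ratio. The scripts were tested on simulated data.

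Named genes are the 6 members, genes with their 5p seed, the miR-29 and miR-181 families as sums with their top gene, the 3 genes nearest each member, and overlapping genes. Single markers are named where at 0 in a library or where a list holds 1 gene. Others, chosen after their values were seen, carry a list's difference, run against it or are given beside one that does. Members, lists and rules were chosen with earlier results of these data known. Alternatives were other scalings, totals, counting columns, minimum counts, hairpin length and each library alone.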

Additional observations from a re-analysis of the deposited data

Results flagged for a closer look

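Reads stood in a column that the levels do not use. Mir30f, annotated on the strand opposite to Mir30e, had 9194 opposite-strand counts in replicate 2 and 9519 in replicate 1, equal to the own-strand counts of Mir30e, and 0 own-strand counts in both. These reads made up 3.06% of the ambiguous entry of the unstranded counts in replicate 2 and 3.14% in replicate 1.

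Reads that fit several places made up 39.9% of all reads in replicate 2 (4604314 reads) and 42.8% in replicate 1 (5091406 reads). How many of them come from miR-30c-5p, which Mir30c-1 and Mir30c-2 share, was not tested, since this entry names no gene. With 2 libraries in the group, no search for outlying samples applied.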

How the results depend on the processing

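The mean family sum of 16181 CPM was 15015 CPM with unstranded counts, 18143 with Mir139 left out of the total, 5722 over all reads and 16403 per hairpin base. With unstranded counts the clusters led by Mir30d, Mir30a and Mir30e gave 62.2%, 36.4% and 1.40% of the family, since Mir30e was at 0 there, and no ratio to Mir30c-1 could be formed. Per hairpin base the clusters led by Mir30a and Mir30e gave 34.8% and 13.2%. The log2 ratio of the family between the libraries, 0.03 with TMM, was 0.0644 with DESeq2 size factors, -0.0123 with total counts and -0.0119 with unstranded counts. Over all tested genes the median moved between -0.08 with total counts and -0.003 with DESeq2 size factors. Genes past 2-fold made up 17.5% of those tested, and 28.9% of 636 genes when 1 count in each library sufficed. The number of members past 2-fold was 1 under TMM, total counts, DESeq2 size factors and unstranded counts, but the interval of Mir30c-1 begins at 1.00. With unstranded counts Mir30e, at 0, could not be tested, and 16.5% of 285 genes were past 2-fold. Using each library alone gave family sums of 16112 CPM without replicate 1 and 16250 CPM without replicate 2. Of 118 recomputed values, 76 were counted as unchanged and 42 as moved, a tally that does not measure stability. For levels, shares and partner ratios the limit was the SD of the libraries. For ratios between libraries it was the half-width of the counting interval, while percentages past 2-fold had no spread. A single library always lies within the SD of 2, so 16 values without replicate 1 and 16 without replicate 2 could not move. Shares of the family could not change with the total. No paired analysis was possible because there is 1 group. Depth limits the low members most, as the interval of Mir30b spans 0.47 to 0.80. No cause was tested for the values that moved, beyond the strand overlap at Mir30e.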
